A study of Mus musculus with 32 samples.

Results

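The protein-coding genes that flank Il6 on mouse chromosome 5 were followed through 32 RNA-seq libraries of tendon assembloids. A gene was counted as a flanking gene if its start lay within 10 Mb of the start of Il6, and Il6 itself was left out. Of the 25700 genes in the count tables, 221 met this rule, 83 before Il6 and 138 after it along the chromosome. Of these, 64 lay under 2 Mb from Il6, 65 between 2 and 5 Mb and 92 between 5 and 10 Mb. The positions came from an annotation of the assembly GRCm38, whereas the counts were made with GRCm39, so positions served only for membership and gene order. In that annotation 222 genes met the rule, of which 221 were matched, 1 flanking gene lay within 0.5 Mb of the edge of the window and 0 further genes lay within 0.5 Mb outside it.

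Genes that lie close together on a chromosome are inherited together. When a gene is targeted in embryonic stem cells of one mouse strain and the mice are then bred to another strain, a stretch of the donor chromosome can stay around the targeted gene, and its neighbours can then differ in sequence between knock-out and wildtype mice. Il6 encodes interleukin-6, an inflammatory cytokine, and the Kopf allele interrupts the gene with an inserted cassette, so that reads from the remaining parts of the transcript can still be counted. The flanking genes have unrelated roles, among them nucleotide synthesis, mitochondrial fat oxidation, matrix assembly, hedgehog signalling and ion transport. Whether KO and WT mice were littermates was not given in the sources used here.

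In the assembloids, tail tendon core explants were surrounded by a collagen-1 hydrogel and cultured for 7 days under clamps. Cores labelled KO carried the genotype B6.129S2-Il6tm1Kopf/J Il-6-/- and cores labelled WT the genotype B6.129S2-Il6tm1Kopf/J Il-6+/+, from male and female mice aged 12 to 15 weeks. There were 4 libraries each of KO cores beside a cell-free hydrogel, WT cores beside a cell-free hydrogel, KO cores beside fibroblasts and WT cores beside fibroblasts. A further 4 libraries came from WT cores beside macrophages, which have no KO counterpart. The hydrogel itself was sequenced in 6 libraries around KO cores and 6 around WT cores. A core library was a pool of 20 to 24 explants of 2 cm, and a hydrogel library a pool of 2 hydrogels. The seeded fibroblasts, which the labels call progenitors, were mixed from 6 mice and are labelled Il-6+/+ in both hydrogel groups, so that KO cells could reach the hydrogel only by leaving the core. By the study's methods each core pool came from 1 mouse and was 1 biological replicate, and a hydrogel pool held cells that had left the core of that mouse beside the seeded mix.

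The libraries held 20360289 to 59860703 counts, and 0.714 to 0.928% of a library's counts fell on flanking genes. Pools with an RNA integrity number of 2 or more were sequenced. Summed markers of tenocytes, macrophages, endothelium, skeletal muscle, erythroid cells and Schwann cells overlapped between KO and WT libraries in each of the 3 cultures. In cores with fibroblasts the 9 tenocyte markers summed to 29310 to 45742 CPM (counts scaled to the library total, 1 CPM being 20.4 counts in the shallowest library) in cores labelled KO and to 30905 to 56950 CPM in WT cores. Hydrogel KO replicate 5 stood apart, with 1497 CPM of the macrophage gene Lyz2 where the other 11 hydrogel libraries had 6536 CPM or more. In every core group 2 of the 4 libraries counted the Y-linked gene Eif2s3y above 10 CPM, and libraries of the same genotype and number matched in this across the core cultures. Same-numbered cores of a genotype may therefore come from the same mouse, which is not stated. In each hydrogel group 3 of 6 libraries were above 10 CPM of Eif2s3y, with 2.14 to 28.6 CPM over both groups. KO and WT hydrogels lay on different sides of 10 CPM in replicates 1, 3, 4 and 5. Core and hydrogel numbers do not correspond. By the codes in the titles, hydrogel replicates 2, 3, 4 and 6 go with core replicates 1, 2, 3 and 4. In these bulk libraries, fewer cells of a type and less RNA per cell cannot be told apart.

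The 3 genes described first below, Tyms, Galnt11 and Fam126a, were the flanking genes that differed in the same direction in all 3 cultures with an unadjusted p under 0.05 in at least 2 of them. Their promoters are shown so that the regulatory sequence of these 3 can be read beside their values, and the sequences are those of the reference, not of the mice used. RefSeq sequence on GRCm38.p6 was used, 250 bases before to 50 bases after the gene start, which was found for 188 of the 221 flanking genes. Capitals mark the GC box GGGCGG. The CCAAT box CCAAT and the TATA box TATAAA were searched on both strands as well and had 0 matches in these 3 windows.
Tyms, chr5:30073576-30073875, minus strand: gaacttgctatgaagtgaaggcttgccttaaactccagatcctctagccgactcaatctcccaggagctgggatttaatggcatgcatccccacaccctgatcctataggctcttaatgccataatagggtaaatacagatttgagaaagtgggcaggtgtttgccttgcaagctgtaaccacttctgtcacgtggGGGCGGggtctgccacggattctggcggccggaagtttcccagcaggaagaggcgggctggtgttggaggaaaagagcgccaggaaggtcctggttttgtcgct
Galnt11, chr5:25222622-25222921, plus strand: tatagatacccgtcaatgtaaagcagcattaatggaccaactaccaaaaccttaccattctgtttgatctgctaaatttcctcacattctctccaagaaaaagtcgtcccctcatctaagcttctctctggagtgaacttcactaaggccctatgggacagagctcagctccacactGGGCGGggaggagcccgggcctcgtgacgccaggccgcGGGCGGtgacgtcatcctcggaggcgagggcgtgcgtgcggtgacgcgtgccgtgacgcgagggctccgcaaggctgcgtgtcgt
Fam126a, chr5:24030263-24030562, minus strand: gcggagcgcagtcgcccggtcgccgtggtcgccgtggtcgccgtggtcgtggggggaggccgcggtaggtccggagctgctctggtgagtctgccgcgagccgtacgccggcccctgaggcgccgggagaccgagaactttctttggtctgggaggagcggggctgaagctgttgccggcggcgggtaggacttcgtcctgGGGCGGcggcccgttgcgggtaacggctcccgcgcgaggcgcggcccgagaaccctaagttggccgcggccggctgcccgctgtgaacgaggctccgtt
The GC box was found 1 time at Tyms, 2 times at Galnt11 and 1 time at Fam126a. The table holds a second start of Galnt11, not shown, whose window had 0 GC boxes and a GC content of 43.0%. Of the 32851 tabulated promoters, 35.7% held a GC box, 37.4% a CCAAT box and 13.6% a TATA box on either strand. Of the 222 promoters listed for flanking genes, 63.1%, 36.5% and 2.7% held these 3 motifs in the same order. All tabulated promoters were used without a selection of protein-coding genes, so these shares may not compare like with like. GC content was 53.0% at Tyms, 57.0% at Galnt11 and 73.3% at Fam126a, with a median of 52.7% over all promoters.

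Il6 was counted in every library labelled KO. In cell-free cultures it was at 6.84, 9.67, 7.04 and 19.98 CPM in cores labelled KO, against 7.59, 2.08, 12.5 and 3.80 CPM in WT cores. Beside fibroblasts it was at 10.6, 15.5, 18.4 and 35.1 CPM in cores labelled KO, against 5.93, 12.3, 4.88 and 8.91 CPM in WT cores. In hydrogels the lowest, median and highest values were 5.56, 11.99 and 36.7 CPM around cores labelled KO, against 4.01, 7.88 and 9.47 CPM around WT cores. The groups overlapped in all 3 cultures, and in each of them the median was higher in the libraries labelled KO. The log2 fold change, always given as KO over WT, was 0.79 (SE 0.53) in cell-free cores, 1.30 (SE 0.39) in cores with fibroblasts and 1.03 (SE 0.44) in hydrogels. A count per gene does not show which part of the transcript was read, so it does not check the allele. In hydrogels the label is the genotype of the core, and the seeded cells are labelled Il-6+/+ in both groups. The study measured IL-6 protein in supernatants of cell-free KO and WT cultures, and it describes assembloids with KO cores as having reduced IL-6. That protein measure is not part of these counts. Since the count was not lower in cores labelled KO, the libraries are called labelled KO throughout.

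Of the flanking genes, 0 passed an adjusted p of 0.05 in edgeR's quasi-likelihood test in any of the 3 cultures, in both core cultures in 1 fit or in the test of whether the genotype difference depended on the culture. Over all genes tested, 0% passed in each of these 5 fits as well. At an unadjusted p under 0.05, 6 of 171 flanking genes (3.51%) stood out in cell-free cores, 29 of 174 (16.7%) in cores with fibroblasts and 6 of 163 (3.68%) in hydrogels. The share of all genes at this threshold was 2.11% in cell-free cores, 8.88% in cores with fibroblasts and 2.65% in hydrogels. Other protein-coding genes of chromosome 5 had shares of 3.70%, 8.67% and 2.51% in the same order. In cores with fibroblasts the share was above both. In cell-free cores and hydrogels it rested on 6 genes and lay near the share of all genes. Without WT replicate 3 it was 1.16% in cell-free cores, against 1.49% of all genes, and without WT replicate 4 it was 3.49%, against 3.99%. In hydrogels it was 1.84% without WT replicate 1, against 2.18% of all genes, and 1.23% without WT replicate 2, against 1.91%. Leaving out any other library left it above the share of all genes in both cultures. No test of the list was run.

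With both core cultures in 1 fit, 17 of 175 flanking genes (9.71%) had an unadjusted p under 0.05, where all genes had 4.43% and the rest of chromosome 5 had 4.74%. Of the 17, 8 were higher and 9 lower in cores labelled KO, with 2.47% and 1.96% of all genes in those directions. When the counts of same-numbered libraries were summed over the 2 cultures, 19 of 183 flanking genes (10.4%) had an unadjusted p under 0.05, against 3.70% of all genes. DESeq2 called 1 flanking gene at an adjusted p of 0.05, Stk32b, among 45 of all 16088 genes in cores with fibroblasts. It called 0 flanking genes in cell-free cores and hydrogels, where it called 13 and 1 of all genes. Its counts at an unadjusted p under 0.05 were 7, 29 and 8 flanking genes in cell-free cores, cores with fibroblasts and hydrogels, with 2.42%, 8.60% and 4.10% of all genes.

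**Figure D1:**
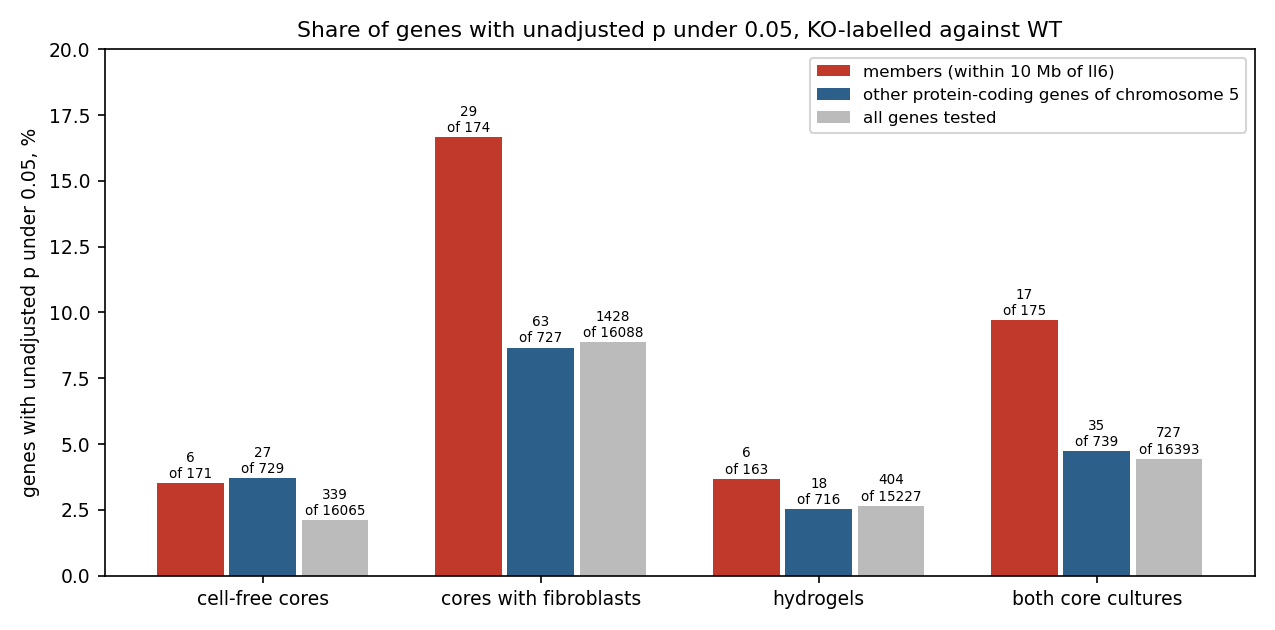
Share of genes with an unadjusted p under 0.05 (percent, y axis) between libraries labelled KO and WT libraries, in 3 cultures and with both core cultures in 1 fit, for flanking genes (red), other protein-coding genes of chromosome 5 (blue) and all genes tested (grey). The numbers over the bars are the genes at that threshold out of those tested, such as 29 of 174 flanking genes in cores with fibroblasts.

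The flanking genes at this threshold were also counted by distance from Il6. In cores with fibroblasts, 10 of 48 tested genes under 2 Mb (20.8%), 3 of 47 between 2 and 5 Mb (6.38%) and 16 of 79 between 5 and 10 Mb (20.3%) had an unadjusted p under 0.05. In the fit of both core cultures these counts were 8 of 48 (16.7%), 3 of 47 (6.38%) and 6 of 80 (7.5%). In cell-free cores they were 1 of 47 (2.13%), 1 of 47 (2.13%) and 4 of 77 (5.19%). In hydrogels they were 3 of 44 (6.82%), 2 of 45 (4.44%) and 1 of 74 (1.35%). The counts in cell-free cores and hydrogels are too small to show an order. Leaving out 1 library moved the whole hydrogel count between 2 and 13. All genes had 8.88% in cores with fibroblasts, 4.43% in the fit of both core cultures, 2.11% in cell-free cores and 2.65% in hydrogels. Distance bands were described only, without a test.

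**Figure D2:**
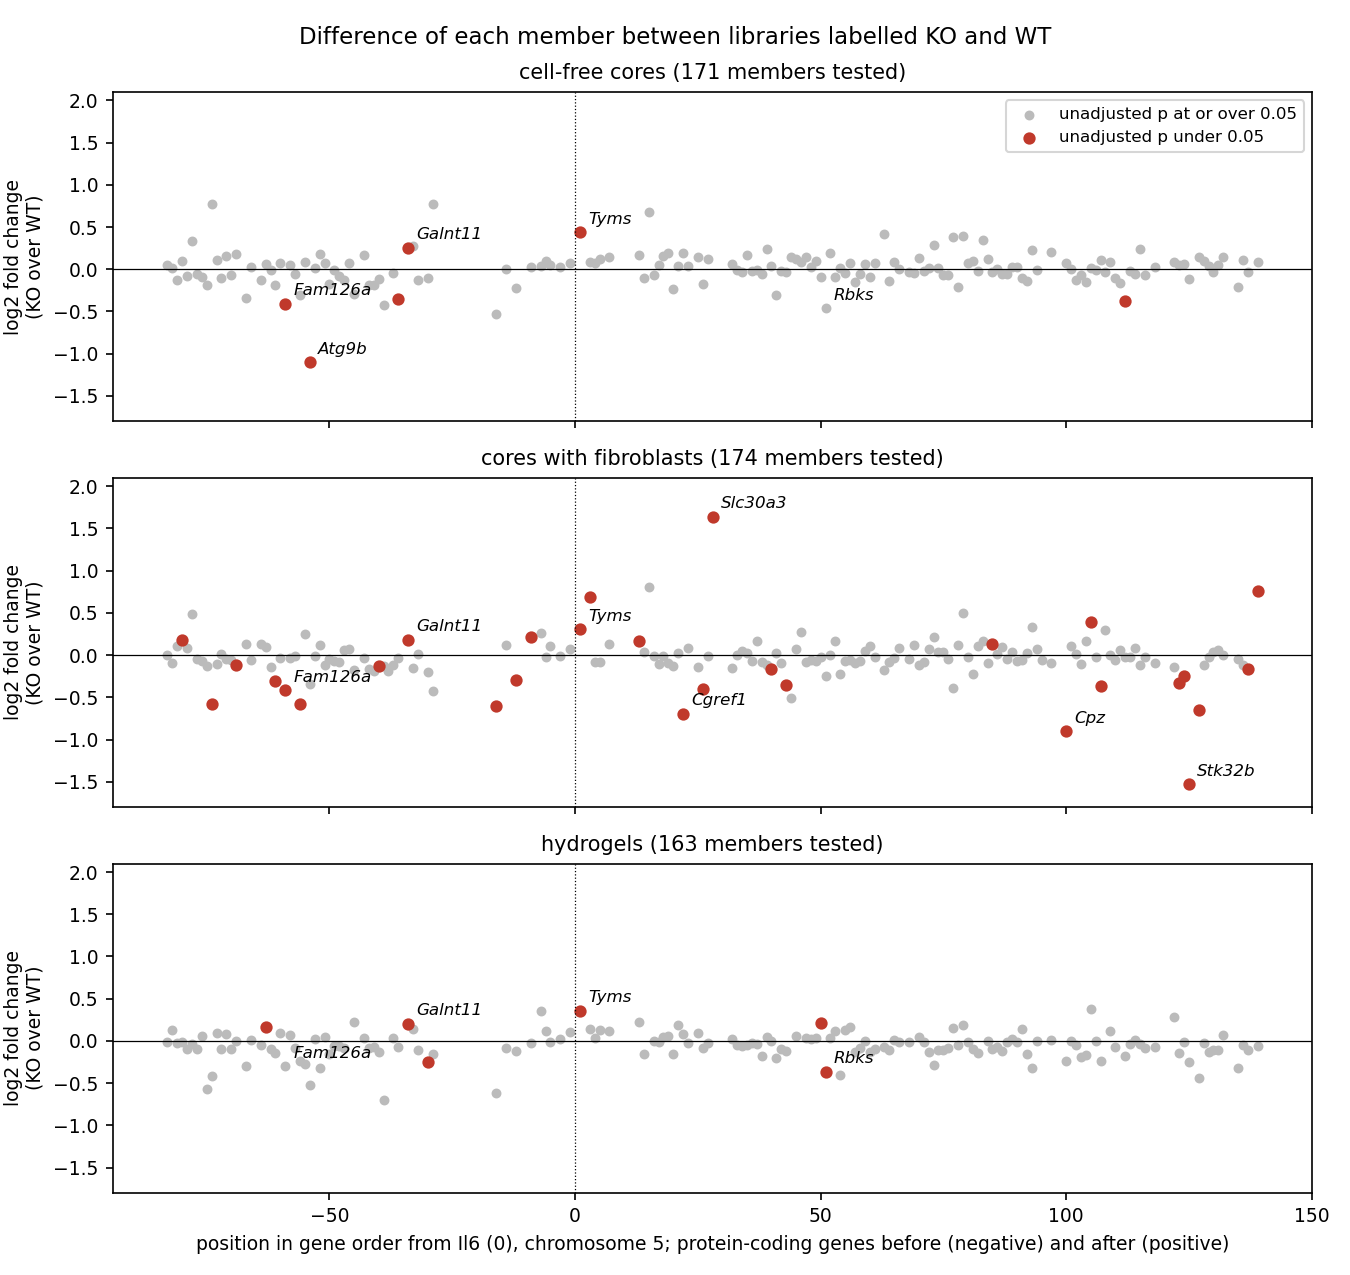
Log2 fold change of each tested flanking gene (y axis, KO over WT) against its place in gene order from Il6 (x axis, 0 marks Il6), in cell-free cores, cores with fibroblasts and hydrogels, with genes of unadjusted p under 0.05 in red. Tyms, the first gene after Il6, and Galnt11 are red in all 3 panels, and the widest spread is seen in cores with fibroblasts.

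Of the 174 genes tested in at least 1 culture, 138 had an unadjusted p under 0.05 in none, 33 in 1, 1 in 2 and 2 in all 3. Tyms and Galnt11 were the 2 genes with such a p in all 3 cultures and Fam126a the gene with 2. These 3 were singled out after their values had been seen, and none passed an adjusted p of 0.05.

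Tyms, which encodes thymidylate synthase, the enzyme that makes the thymidine nucleotide for DNA synthesis, is the nearest annotated protein-coding gene after Il6. In cell-free cultures it was at 18.4, 13.7, 16.2 and 17.6 CPM in cores labelled KO, against 12.5, 13.7, 9.86 and 14.02 CPM in WT cores. Only the lowest KO library overlapped the WT range. Beside fibroblasts it was at 13.0, 11.9, 13.4 and 11.1 CPM in cores labelled KO, against 10.3, 11.01, 8.67 and 8.75 CPM in WT cores, without overlap. In hydrogels the lowest, median and highest values were 13.5, 18.5 and 23.1 CPM around cores labelled KO, against 12.3, 14.6 and 16.0 CPM around WT cores. The log2 fold changes were 0.44 (SE 0.17), 0.31 (SE 0.09) and 0.36 (SE 0.14) in cell-free cores, cores with fibroblasts and hydrogels. The unadjusted p from edgeR was 0.0288, 0.00483 and 0.0213, and the exact permutation test (two-sided) gave 0.0571, 0.0286 and 0.0390. With 4 libraries against 4, 0.0286 is the smallest p the exact test can give.

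Tyms is expressed in dividing cells, as is the proliferation gene Mki67. Mki67 was at 154, 115, 174 and 222 CPM in cell-free cores labelled KO, against 174, 190, 121 and 229 CPM in WT cores. Beside fibroblasts it was at 122, 95.1, 142 and 93.5 CPM in cores labelled KO, against 109, 129, 72.1 and 119 CPM in WT cores. In hydrogels its lowest, median and highest values were 68.3, 119 and 243 CPM around cores labelled KO, against 98.7, 175 and 265 CPM around WT cores. Mki67 overlapped between the groups in all 3 cultures, and the part of proliferation in the Tyms values was not tested. The WT cores beside macrophages had 13.7, 9.77, 8.92 and 8.69 CPM of Tyms, the range of WT cores beside fibroblasts apart from replicate 1.

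Galnt11 encodes an enzyme that starts mucin-type O-glycosylation of proteins. It was at 65.4, 68.3, 58.5 and 56.3 CPM in cell-free cores labelled KO, against 56.0, 51.6, 55.5 and 49.4 CPM in WT cores. Beside fibroblasts the values were 58.5, 66.1, 61.5 and 60.4 CPM in cores labelled KO, against 55.7, 50.01, 50.6 and 55.0 CPM in WT cores. Neither culture had an overlap between the groups. In hydrogels the lowest, median and highest values were 35.7, 43.9 and 47.3 CPM around cores labelled KO, against 31.8, 38.3 and 42.4 CPM around WT cores. The log2 fold changes were 0.26 (SE 0.10), 0.18 (SE 0.08) and 0.20 (SE 0.09) in the 3 cultures, with unadjusted p of 0.0228, 0.0421 and 0.0382 from edgeR. WT cores beside macrophages, however, had 64.0, 57.0, 57.3 and 61.0 CPM, inside the range of the cores labelled KO. WT cores thus reached the CPM of the cores labelled KO in another culture, with CPM scaled to library totals only. Flanking genes as a whole took a median of 0.858% of counts in WT cores beside macrophages. In WT cores it was 0.790% in cell-free cultures and 0.775% beside fibroblasts. The part of this in the Galnt11 values was not tested. The gene overlaps E130116L18Rik on the opposite strand.

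Fam126a, which encodes hyccin, a subunit of the complex that holds a lipid kinase at the plasma membrane, ran the other way. It was at 43.4, 37.0, 42.7 and 28.2 CPM in cell-free cores labelled KO, against 50.5, 61.3, 54.3 and 39.6 CPM in WT cores. Beside fibroblasts it was at 43.3, 37.9, 37.0 and 28.1 CPM in cores labelled KO, against 42.2, 62.7, 47.2 and 38.4 CPM in WT cores. The log2 fold change was -0.41 in both core cultures (SE 0.15 in cell-free cores and 0.14 beside fibroblasts), with unadjusted p of 0.0247 and 0.0121. In hydrogels it was at 53.3, 58.7, 108, 116, 67.2 and 63.2 CPM around cores labelled KO and at 72.8, 61.9, 132, 134, 87.9 and 88.5 CPM around WT cores in replicates 1 to 6. The hydrogel libraries were taken as paired by number, a choice made from these same data and not from the labels. On that pairing, Fam126a was lower in the library labelled KO in 6 of 6 pairs. The log2 fold change of -0.30 had an unadjusted p of 0.215 without the pairing and of 0.000841 with the replicate block (adjusted p of 0.879, edgeR), and an exact sign-flip permutation test over the pairs (two-sided) gave 0.0312, the smallest p that 6 pairs can give.

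With both core cultures in 1 edgeR fit, the log2 fold change was 0.37 (SE 0.10) for Tyms, 0.22 (SE 0.06) for Galnt11 and -0.41 (SE 0.10) for Fam126a, with unadjusted p of 0.00123, 0.00139 and 0.00106 and adjusted p of 0.505, 0.530 and 0.505. With the counts of same-numbered libraries summed, the unadjusted p was 0.00890, 0.0110 and 0.0116. The differences of these genes between the 2 core cultures in their genotype effect were small, with interaction terms of -0.13 (SE 0.20), -0.08 (SE 0.12) and -0.01 (SE 0.22) on the log2 scale.

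**Figure D3:**
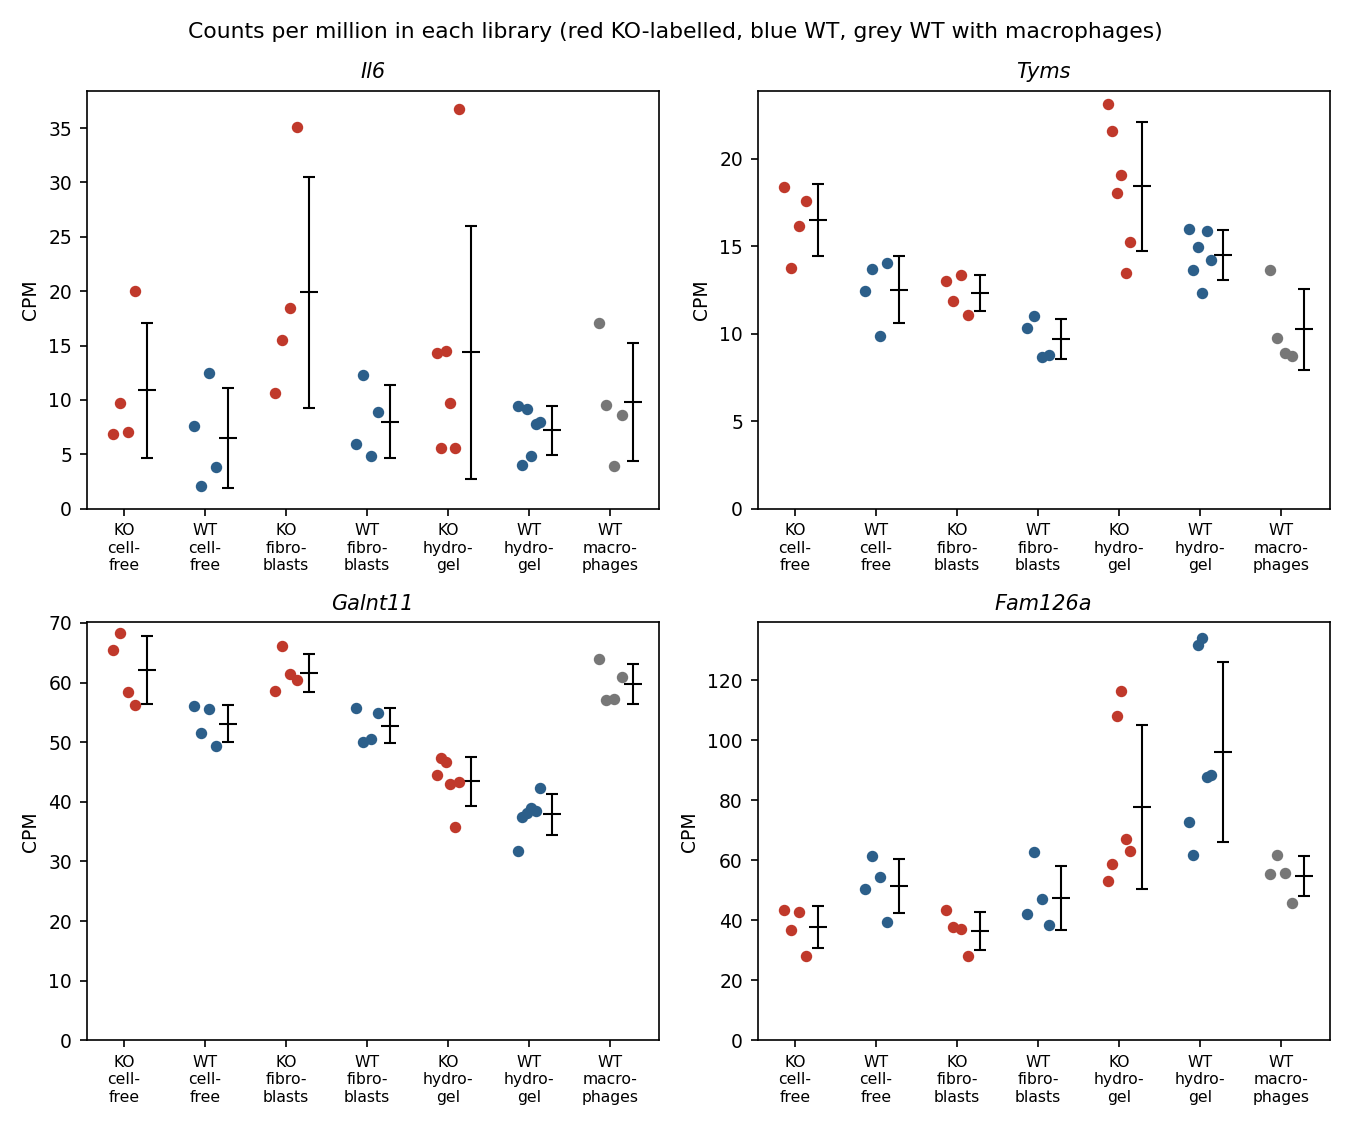
CPM (y axis) of Il6, Tyms, Galnt11 and Fam126a in each library of the 7 groups, red for libraries labelled KO, blue for WT and grey for WT cores beside macrophages, with mean and SD as black bars (n = 4 for cores, 6 for hydrogels). Galnt11 does not overlap between KO and WT cores of either culture, while the grey points lie at the height of the red core points.

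Among the other close neighbours of Il6, Dnajb6 (a co-chaperone), Ube3c (a ubiquitin ligase) and Nom1 (a nucleolar protein) lie before it, and Garem2 (a signalling adapter), Hadha and Hadhb (the subunits of the mitochondrial trifunctional protein of fatty acid oxidation) after it. Dnajb6, the nearest before Il6, was at 31.8, 37.6, 40.3 and 37.3 CPM in cell-free cores labelled KO, against 33.7, 35.1, 38.1 and 35.7 CPM in WT cores. Its log2 fold changes were 0.07 (SE 0.09), 0.07 (SE 0.12) and 0.11 (SE 0.07) in cell-free cores, cores with fibroblasts and hydrogels. Hadha had 0.07 (SE 0.13), -0.08 (SE 0.05) and 0.03 (SE 0.07), and Hadhb had 0.12 (SE 0.16), -0.08 (SE 0.06) and 0.13 (SE 0.08). Ube3c stayed between -0.02 and 0.03 (SE up to 0.07) and Nom1 between -0.02 and 0.11 (SE up to 0.11). These 5 genes had no unadjusted p under 0.05 in any culture.

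Garem2 was counted at low levels. Beside fibroblasts it was at 1.12, 1.27, 1.37 and 2.60 CPM in cores labelled KO, against 0.878, 1.09, 0.797 and 1.06 CPM in WT cores, without overlap (log2 fold change 0.69, SE 0.30, unadjusted p of 0.0471 from edgeR). It had 0.09 (SE 0.32) in cell-free cores and 0.14 (SE 0.26) in hydrogels. The remaining 3 of the 10 closest genes, Mnx1, Gm5129 and 3110082J24Rik, had at most 0.467 CPM in any library and were not tested.

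In cell-free cores, 2 of the 6 flanking genes with an unadjusted p under 0.05 were higher and 4 lower in cores labelled KO, with 1.18% and 0.927% of all genes in those directions. With a log2 fold change beyond 0.5 as well, the thresholds that the study used for its KO comparisons left 1 of 171 (0.585%), against 1.24% of all genes. This was Atg9b, which encodes a membrane protein of autophagosome formation. It was at 0.834, 0.374, 0.760 and 1.07 CPM in cores labelled KO, against 1.44, 1.84, 1.76 and 1.75 CPM in WT cores, without overlap (log2 fold change -1.10, SE 0.31, unadjusted p of 0.00569 from edgeR). Beside fibroblasts the 2 groups overlapped, with a log2 fold change of -0.34 (SE 0.22). Atg9b overlaps Nos3 on the opposite strand, and whether the counting used the strand was not given in the sources used here. Together with Galnt11 and Nub1, it was among the 3 of 171 flanking genes (1.75%) whose CPM did not overlap between the groups, against 1.48% of all genes. Rbks, which encodes ribokinase, was at 2.84, 3.04, 2.56 and 2.13 CPM in cores labelled KO, against 3.87, 2.81, 4.74 and 3.39 CPM in WT cores (log2 fold change -0.46, SE 0.21).

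In cores with fibroblasts, 10 of the 29 flanking genes were higher and 19 lower in cores labelled KO, against 4.64% of all genes higher and 4.23% lower. With a log2 fold change beyond 0.5 there were 10 of 174 (5.75%), against 2.44% of all genes. Of these, 3 were higher (Slc30a3, Hs3st1 and Garem2) and 7 lower (Stk32b, Cpz, Cgref1, Msx1, Dpp6, Kcnh2 and Lrrc17), with 1.55% and 0.883% of all genes in those directions. The groups did not overlap in CPM for 10 of the 174 (5.75%), against 3.48% of all genes. Leaving out any 1 library left 22 to 29 flanking genes with an unadjusted p under 0.05 (12.5 to 16.7%), where all genes had 4.61 to 10.4%.

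Stk32b, which encodes a serine/threonine kinase, had the lowest log2 fold change. It was at 2.90, 2.87, 1.86 and 1.79 CPM in cores labelled KO, against 7.31, 3.23, 8.33 and 7.46 CPM in WT cores, without overlap. The log2 fold change was -1.53 (SE 0.31), with an unadjusted p of 0.000568 and an adjusted p of 0.457 from edgeR, an adjusted p of 0.00135 from DESeq2, and an exact permutation p of 0.0286 (two-sided). WT replicate 2 was the low WT library, and without it edgeR gave an adjusted p of 0.0310 and a log2 fold change of -1.77. In cell-free cultures Stk32b was at 2.43, 4.16, 1.68 and 0.492 CPM in cores labelled KO, against 2.68, 2.96, 2.98 and 1.08 CPM in WT cores. WT cores beside macrophages had 4.23, 3.69, 9.09 and 2.16 CPM. The highest values were thus in WT cores beside fibroblasts and in 1 WT core library beside macrophages. The interaction term was -1.43 (SE 0.63, unadjusted p of 0.0369, adjusted p of 0.985, edgeR).

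Cpz, which encodes a secreted carboxypeptidase, was at 22.0, 31.5, 21.2 and 21.9 CPM in cores with fibroblasts labelled KO, against 34.8, 27.9, 52.9 and 59.0 CPM in WT cores (log2 fold change -0.90, SE 0.25). In cell-free cultures the log2 fold change was 0.07 (SE 0.20). Cgref1, which encodes a secreted calcium-binding protein, was at 17.7, 14.6, 12.7 and 16.5 CPM in cores with fibroblasts labelled KO, against 26.8, 16.2, 29.1 and 24.8 CPM in WT cores (log2 fold change -0.70, SE 0.20), and WT replicate 2 was again the lowest of the WT cores. Lrrc17, a secreted leucine-rich repeat protein, was at 1.06, 1.59, 1.19 and 1.03 CPM in cores labelled KO, against 1.44, 1.79, 2.03 and 1.80 CPM in WT cores (log2 fold change -0.58, SE 0.19). In cell-free cores its log2 fold change was 0.77 (SE 0.41). Msx1, a homeobox transcription factor, had -0.65 (SE 0.24) beside fibroblasts and 0.14 (SE 0.25) in cell-free cores.

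In the test of whether the genotype difference depended on the core culture, 7 of 179 flanking genes (3.91%) had an unadjusted p under 0.05, against 3.01% of all genes. In 6 of the 7 the difference was more negative beside fibroblasts, and these were Stk32b, Cpz, Cgref1, Lrrc17, Msx1 and Evc, while Rsbn1l had a positive term of 0.24. Evc, a ciliary protein of hedgehog signalling, was at 68.4, 64.2, 72.0 and 61.4 CPM in cores with fibroblasts labelled KO, against 80.1, 71.1, 91.5 and 81.9 CPM in WT cores (log2 fold change -0.33, SE 0.09). Its partner gene Evc2 had -0.25 in the same comparison. The interaction terms were -0.98 for Cpz (SE 0.35), -0.89 for Cgref1 (SE 0.36), -1.36 for Lrrc17 (SE 0.46), -0.80 for Msx1 (SE 0.34) and -0.39 for Evc (SE 0.15).

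The tendon marker Tnmd (tenomodulin) was low in the WT library that was low for several of these genes. Beside fibroblasts it was at 212, 158, 112 and 287 CPM in cores labelled KO, against 414, 128, 285 and 290 CPM in WT cores. The lowest WT library was replicate 2, which was also lowest of the WT cores for Stk32b, Cpz, Cgref1 and Evc. Lrrc17 was instead lowest in WT replicate 1 and Dpp6 in WT replicate 4. Among the cores labelled KO, replicate 4 was highest for Tnmd and lowest for Stk32b. Scx, another of the tenocyte markers, did not follow Tnmd. It was at 20.8, 18.3, 15.2 and 15.4 CPM in cores labelled KO, against 28.5, 17.6, 26.4 and 14.3 CPM in WT cores, with replicate 4 the lowest. The 9 tenocyte markers had a median log2 fold change of -0.36 in this comparison, with 1 lower at an unadjusted p under 0.05, and 0.02 in cell-free cores. Their part in the differences of the flanking genes was not tested.

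**Figure D4:**
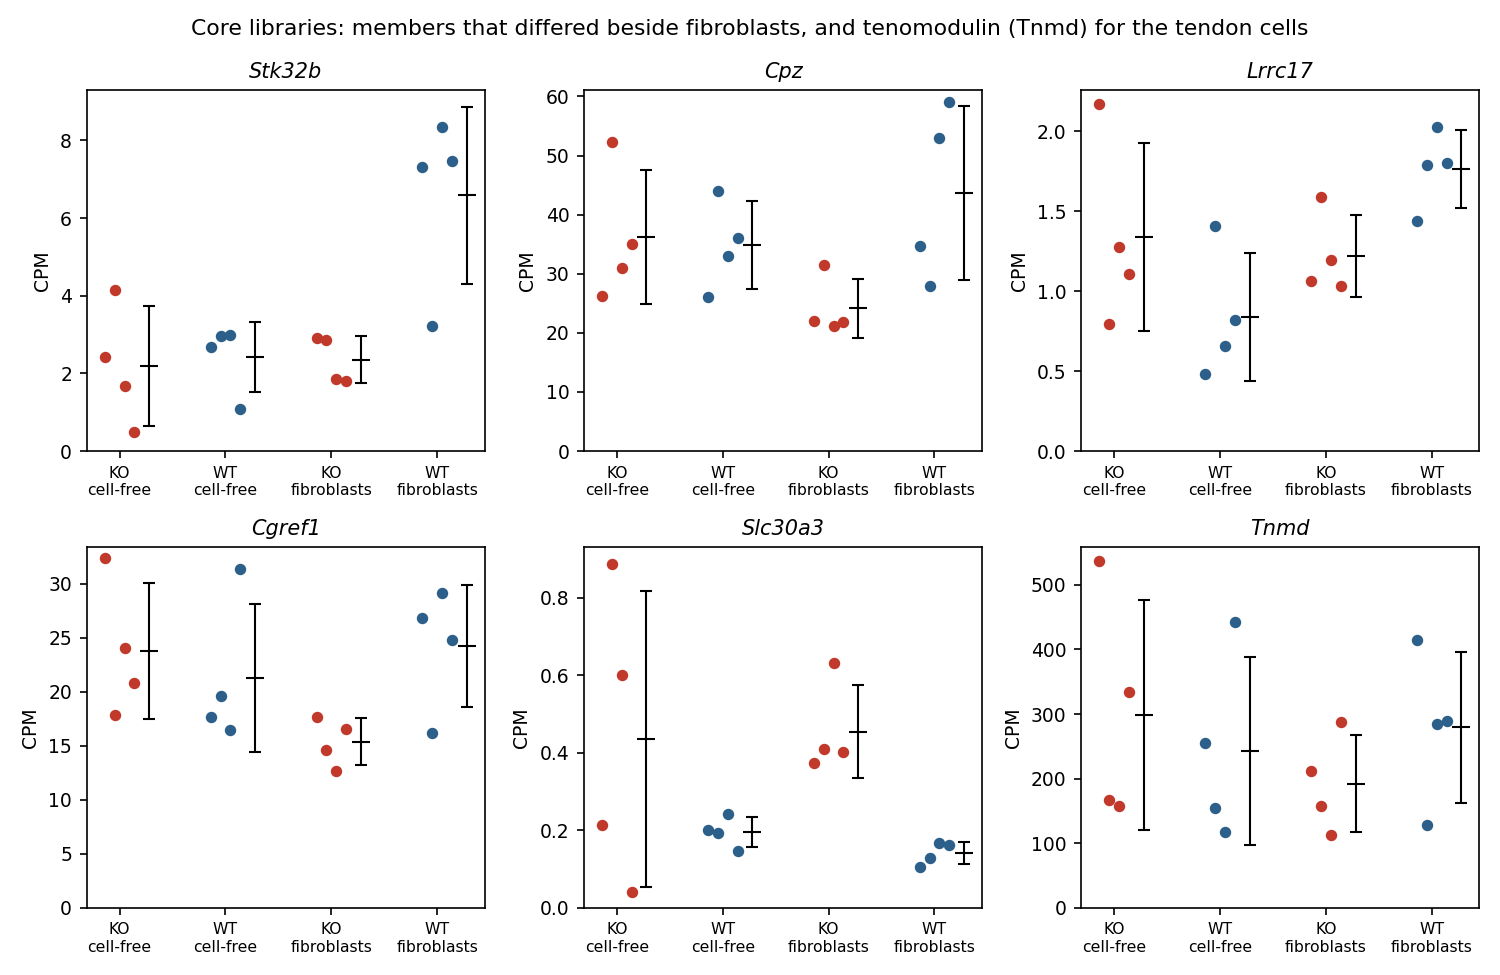
CPM (y axis) of 5 flanking genes and of Tnmd in each core library, red for cores labelled KO and blue for WT cores, with mean and SD as black bars (n = 4 per group). Stk32b, Cpz, Lrrc17 and Cgref1 are lower in cores labelled KO beside fibroblasts, Slc30a3 is higher, and WT replicate 2 (second point of the group) is low for Stk32b, Cpz, Cgref1 and Tnmd.

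Slc30a3, a zinc transporter, was the flanking gene with the lowest p beside fibroblasts, at very low levels. It was at 0.374, 0.409, 0.632 and 0.403 CPM in cores labelled KO, against 0.106, 0.128, 0.166 and 0.161 CPM in WT cores, without overlap (log2 fold change 1.64, SE 0.32, an unadjusted p of 0.000404 from edgeR, adjusted p of 0.457). In cell-free cultures it was at 0.215, 0.888, 0.5997 and 0.0410 CPM in cores labelled KO, against 0.1997, 0.194, 0.242 and 0.146 CPM in WT cores, and fell under the count filter. Dpp6, an accessory subunit of potassium channels, was at 7.24, 7.37, 6.96 and 6.31 CPM beside fibroblasts in cores labelled KO, against 12.7, 12.1, 11.1 and 5.63 CPM in WT cores (log2 fold change -0.61, SE 0.21). Its log2 fold changes of -0.53 (SE 0.45) in cell-free cores and -0.62 (SE 0.33) in hydrogels had the same direction. The potassium channel gene Kcnh2 had -0.58 (SE 0.20) beside fibroblasts, -0.31 (SE 0.39) in cell-free cores and -0.24 (SE 0.43) in hydrogels.

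2 further genes of the fibroblast comparison were singled out after their values were seen. Insig1, an endoplasmic reticulum protein that restrains sterol synthesis, was at 95.7, 105, 91.0 and 94.7 CPM in cores labelled KO, against 99.9, 136, 117 and 111 CPM in WT cores (log2 fold change -0.29, SE 0.09). Its log2 fold change was -0.23 (SE 0.14) in cell-free cores and -0.12 (SE 0.14) in hydrogels. Rint1, a protein of vesicle transport and of the DNA damage checkpoint, was at 29.0, 24.4, 27.0 and 23.6 CPM in cores labelled KO, against 31.0, 31.3, 36.9 and 25.9 CPM in WT cores (log2 fold change -0.30, SE 0.10). It had -0.19 (SE 0.10) in cell-free cores and -0.14 (SE 0.11) in hydrogels, and its 3 differences shared a sign.

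In hydrogels, 4 of the 6 flanking genes were higher and 2 lower around cores labelled KO, with 1.79% and 0.867% of all genes in those directions. With a log2 fold change beyond 0.5 there were 0 of 163, against 0.755% of all genes, and 0 of 163 did not overlap in CPM, against 0.0854% of all genes. With the replicate block, which takes these libraries as pairs by number, 14 of 170 (8.24%) had an unadjusted p under 0.05 and all genes had 5.12%. Of the 14, 6 were higher and 8 lower around cores labelled KO, and 0 passed an adjusted p of 0.05. The titles carry a code (150, 152 or 154) whose meaning the labels do not give. With this title code as the block, 19 of 165 (11.5%) had an unadjusted p under 0.05, against 6.38% of all genes. Without KO replicate 5, the unpaired count was 13 of 164 (7.93%), and the share of all genes was then 5.41%.

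Rbks had values of 2.33, 2.30, 1.84, 1.79, 1.69 and 1.57 CPM around cores labelled KO in replicates 1 to 6, against 2.94, 2.61, 2.43, 1.72, 2.66 and 2.57 CPM around WT cores. It was lower in the library labelled KO in 5 of 6 pairs (log2 fold change -0.36, SE 0.16, unadjusted p of 0.0474, and 0.0270 with the replicate block). Mrpl33, a mitochondrial ribosomal protein whose gene overlaps Rbks on the opposite strand, was higher in 6 of 6 pairs (log2 fold change 0.21, SE 0.08). With Fam126a and Mrpl33, 8 of 170 flanking genes (4.71%) had the same direction in 6 of 6 pairs, against 3.75% of all genes. Tyms and Galnt11 were each higher in 5 of 6 pairs, and the exception in both was pair 5, which holds the KO library with little Lyz2. In the paired fit their unadjusted p was 0.0200 and 0.0345 (edgeR).

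The lists of flanking genes by role showed few differences at an unadjusted p under 0.05, and 0 members passed an adjusted p of 0.05 in edgeR. Over all genes the shares were 2.11% in cell-free cores, 8.88% in cores with fibroblasts and 2.65% in hydrogels, and lists of this size hold few genes to set against them. Of the genes of matrix and secreted factors, 0 of 9 had such a p in cell-free cores, 3 of 10 in cores with fibroblasts (Cpz, Cgref1 and Lrrc17, all lower) and 0 of 9 in hydrogels. The median log2 fold changes of this list were 0.07, -0.12 and -0.16, where the medians of all genes were 0.01, 0.00 and -0.01. Of 14 genes of cell division and DNA synthesis, 1 was higher (Tyms) in cell-free cores, 1 higher (Tyms) and 3 lower (Rint1 and the ciliary genes Evc and Evc2 of hedgehog signalling) in cores with fibroblasts, and 1 higher (Tyms) and 1 lower (Xrcc2, a DNA repair gene, at -0.24) in hydrogels. In growth factor receptors and signalling, 1 of 17 was lower in cell-free cores (Prkag2, a subunit of the energy sensor AMPK, at -0.35). In the same list 1 was higher (Ptpn12 at 0.18) and 2 were lower (Insig1 at -0.29 and Nrbp1 at -0.17) of 17 in cores with fibroblasts, and 1 of 17 was higher in hydrogels (Srpk2, a kinase of splicing factors, at 0.16).

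Of 9 genes of mitochondrial proteins, 0 had such a p in either core culture and 1 was higher in hydrogels (Mrpl33). Of chromatin and transcription genes, 0 of 22 had one in cell-free cores, 1 was higher (Rbm33 at 0.21) and 1 lower (Msx1) of 22 in cores with fibroblasts, and 0 of 21 in hydrogels. Of 12 genes of protein folding, degradation and translation, 2 were lower in cores with fibroblasts (Psmc2, a proteasome subunit, at -0.12 and Nub1 at -0.13) and 0 in the other cultures. Of membrane transport genes, 0 of 10 had such a p in cell-free cores and in hydrogels, and beside fibroblasts Slc30a3 and Slc35f6 (0.17) were higher and Sorcs2, a sortilin-type receptor, was lower (-0.37).

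The 5 flanking genes with the highest mean CPM, a measure that also grows with transcript length, showed no unadjusted p under 0.05 in any culture. Fosl2, a subunit of the AP-1 transcription factor, was at 635, 602, 563 and 570 CPM beside fibroblasts in cores labelled KO, against 548, 517, 511 and 487 CPM in WT cores, without overlap (log2 fold change 0.16, SE 0.08). In cell-free cores it had -0.09 (SE 0.21). Emilin1, a glycoprotein of elastic fibres, had -0.23 (SE 0.20), -0.13 (SE 0.09) and -0.16 (SE 0.12) in cell-free cores, cores with fibroblasts and hydrogels. Wdr1, an actin-disassembly factor, had 0.11 (SE 0.18), -0.12 (SE 0.07) and -0.04 (SE 0.13). Man2b2, a lysosomal mannosidase, and Chpf2, which extends chondroitin chains, stayed between -0.18 and -0.02 with SE up to 0.16.

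At the low end, 47 flanking genes passed the count filter in no culture, 163 passed in all 3 and 11 in 1 or 2. The highest CPM of any of the 47 in any of the 32 libraries was 0.796. They include developmental genes such as Shh, En2 and Mnx1. Trim54, a protein of striated muscle, was 1 of the 47 but passed the filter of the paired hydrogel fit and is among its 14 genes with an unadjusted p under 0.05. It was at 0.796, 0.663, 0.115, 0.0298, 0 and 0 CPM around cores labelled KO in replicates 1 to 6, against 0.0986, 0.209, 0.0399, 0.0167, 0 and 0.0247 CPM around WT cores. It was higher in 4 and lower in 1 of the 6 pairs (log2 fold change 1.92 with the replicate block, unadjusted p of 0.00764, adjusted p of 0.879, edgeR).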

How the data were processed

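The 32 deposited tables hold estimated counts per Ensembl gene, which the authors made from stranded, ribosome-depleted libraries with kallisto (version 0.46.1, assembly GRCm39 in the submitters' processing notes) and deposited as whole numbers without normalization. Which gene annotation they used was not given in the sources used here. Each comparison was fitted on its own libraries over all genes with edgeR (version 4.0.16, R 4.3.3) after filterByExpr and TMM scaling, with the quasi-likelihood F-test and Benjamini-Hochberg adjustment. The standard error (SE) is the absolute log2 fold change over the square root of F. CPM is the count over the library total, so that 1 CPM is 20.4 counts or more. The method was tested on simulated counts. A true log2 fold change of 0.5 passed an adjusted p of 0.05 (edgeR) for 14% of such genes in cell-free cores. It passed for 36% in cores with fibroblasts and 30% in hydrogels. For a change of 1 the shares were 74%, 76% and 76%, and for a change of -1 they were 56.25%, 79.2% and 79.2%. Smaller changes were not simulated. DESeq2 (version 1.42.0), RLE factors, other filters, blocks and left-out libraries were alternatives. Flanking genes, lists and tests were chosen with earlier results of these data known. Named genes were Il6, up to 8 with the lowest p at a log2 fold change beyond 0.5 and an unadjusted p under 0.05 in each culture, 5 neighbours on each side, the 5 with the highest mean CPM, and role list members; Galnt11, Fam126a, Rbks, Rint1, Insig1 and Evc were added after their values were seen. Residuals of same-numbered hydrogel libraries correlated at 0.26 to 0.61 in all 6 pairs, so these numbers were taken to pair libraries, from the data and not from the labels. KO replicates 2 and 6, however, correlated best with WT replicates 1 and 5, which share their title codes. The paired p-values thus rest on a pairing chosen from the same data. In cores the correlations were -0.18 to 0.50, and the numbers were not taken to pair KO with WT. The result of 1 role list in cores with fibroblasts is not reported here in full.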

Additional observations from a re-analysis of the deposited data

Results flagged for a closer look

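Among 189 pairs of named gene and group, 10 had a library far from the others by Dixon's 95% criterion, about the 1 in 20 that chance gives. Hydrogel KO replicate 5 was set apart for 3 genes: Galnt11 was at 35.7 CPM in it and at 43.0 to 47.3 CPM in the other 5, Cpz at 22.6 CPM against 1.21 to 6.41 CPM, and Stk32b at 2.91 CPM against 0.0199 to 0.627 CPM. This library also had 323 CPM of Tnmd, where the other 11 hydrogel libraries had 174 CPM or less, and the part of tendon cells in these values was not tested. Il6 was at 36.7 CPM in hydrogel KO replicate 6 and at 5.56 to 14.5 CPM in the other 5. Cell-free KO replicate 1 was set apart for Nom1 (30.3 CPM against 38.6 to 39.6 CPM) and for Hadhb (36.6 CPM against 26.5 to 27.1 CPM). In cores with fibroblasts labelled KO, Cpz was at 31.5 CPM in replicate 2 (21.2 to 22.0 CPM in the others) and Garem2 at 2.60 CPM in replicate 4 (1.12 to 1.37 CPM). In WT cell-free cores, Stk32b was at 1.08 CPM in replicate 4 (2.68 to 2.98 CPM in the others) and Msx1 at 1.68 CPM in replicate 1 (1.04 to 1.12 CPM).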

How the results depend on the processing

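The number of flanking genes past an adjusted p of 0.05 was 0 in each main comparison. It was also 0 under every alternative run except DESeq2 and edgeR without WT replicate 2, which each gave 1 in cores with fibroblasts (Stk32b, adjusted p of 0.00135 and 0.0310). Of all genes, DESeq2 called 45 and edgeR without WT replicate 2 called 9. Counting genes with an unadjusted p under 0.05 and a log2 fold change beyond 0.5 gave 1 in cell-free cores, 10 in cores with fibroblasts and 0 in hydrogels. Leaving out each replicate in turn gave 0 to 1 past the adjusted p in cores with fibroblasts and 0 in the others, and moved the count at an unadjusted p under 0.05 between 2 and 7 in cell-free cores, 22 and 29 in cores with fibroblasts and 2 and 13 in hydrogels.

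With the replicate block, the count past an adjusted p of 0.05 stayed 0, and the count at an unadjusted p under 0.05 was 8 of 179 in cell-free cores, 29 of 178 in cores with fibroblasts and 21 of 182 in both, with 3.17%, 10.4% and 5.46% of all genes. In cores the numbers were not taken to pair KO with WT. The library labelled KO correlated best with the WT library of its own number in 1 of 4 cases in cell-free cores, 2 of 4 in cores with fibroblasts and 4 of 6 in hydrogels. Blocking on sex, an alternative chosen after seeing the data, was run for cores and not for hydrogels. It gave counts of 4 of 175 in cell-free cores, 30 of 176 in cores with fibroblasts and 19 of 179 in both core cultures. The shares of all genes were 1.97%, 10.4% and 4.54%. Tyms kept its sign in all alternatives, with unadjusted p of 0.00526 to 0.0826 in cell-free cores, 0.00189 to 0.0450 in cores with fibroblasts and 0.00174 to 0.0528 in hydrogels, and so did Galnt11 (0.00639 to 0.0741, 0.0244 to 0.122 and 0.00199 to 0.0813) and Fam126a (0.00467 to 0.0764, 0.00309 to 0.0352 and 0.000116 to 0.446).

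Of 1453 recomputed values of single genes, 35 turned sign, in 20 of 100 pairs of gene and comparison, all of them with an unadjusted p over 0.05 as reported. The cause was not tested. Leaving out each replicate in turn, the log2 fold change ran in cell-free cores from -0.038 to 0.488 for Cgref1, -0.114 to 0.180 for Cpz, -0.022 to 0.157 for Evc, -0.262 to 0.053 for Fosl2, -0.068 to 0.281 for Garem2, -0.038 to 0.159 for Hadha, -0.049 to 0.202 for Hadhb, -0.130 to 0.058 for Man2b2, -0.013 to 0.128 for Nom1, -0.535 to 0.201 for Stk32b and -0.038 to 0.236 for Wdr1. In cores with fibroblasts it ran from -0.024 to 0.149 for Dnajb6, -0.069 to 0.039 for Man2b2 and -0.045 to 0.023 for Ube3c. In hydrogels it ran from -0.194 to 0.245 for Cgref1, -0.120 to 0.278 for Garem2, -0.0059 to 0.070 for Hadha, -0.033 to 0.020 for Nom1, -1.71 to 0.085 for Stk32b and -0.124 to 0.048 for Wdr1. In hydrogels, Nom1 was at 0.0029 with DESeq2 and 0.0012 with RLE factors. Cgref1 was there at -0.038 with the replicate block and -0.028 with the title code as a block.

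Membership rests on gene positions of another assembly. Counts per gene do not separate the alleles, so whether a library carried another strain's chromosome around Il6 was not read from these data. Groups of 4 limit single-gene exact tests to p of 0.0286. Genes under about 1 CPM rest on few counts per library, since 1 CPM was 20.4 counts in the shallowest library.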

Other observations

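Chosen after their values were seen, 3 flanking genes are described in hydrogels and in cores, whatever the genotype label. How many flanking genes, or what share of all genes, differ between hydrogels and cores was not counted. Cpz was mostly lower in hydrogels, at 1.21 to 22.6 CPM in the 12 hydrogel libraries and at 21.2 to 59.96 CPM in the 20 core libraries. These ranges overlapped only through hydrogel KO replicate 5. Kcnh2 ran the other way, with 3.62 to 21.1 CPM in hydrogels and 0.533 to 2.09 CPM in cores, and Lrrc17 had 5.28 to 22.3 CPM in hydrogels and 0.479 to 2.17 CPM in cores. These are other tissues and cell sources, so the values are given as a description.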
